A study of Mus musculus with 6 samples.

Results

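The Reg family and Dmbt1 were followed by RNA-seq in cultured mouse intestinal organoids, miniature epithelia that grow in organoid medium. The 8 genes were Reg1, Reg2, Reg3a, Reg3b, Reg3d, Reg3g, Reg4 and Dmbt1, taken by symbol from the 24956 rows of the deposited table. They had been chosen because several of them differed between the groups of this same comparison, so their levels and fold changes stand here as a description, with no test. All 6 libraries carried the Apc Min genotype, a truncating allele of the beta-catenin scaffold gene Apc. The 3 control libraries came from cells in control medium and the 3 low glutamine libraries from cells in low glutamine medium. By its title the series concerns Wnt signalling, differentiation and alpha-ketoglutarate, which cells can make from glutamine. The labels used here name no glutamine concentration, time in the medium, part of the intestine or number of animals or lines. Replicates are called biological in the design text, and whether they came from separate animals or separate cultures is not stated, so a p-value here speaks only of the spread among these libraries.

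Reg proteins are small secreted proteins built around a C-type lectin fold. In the intestine Reg3b and Reg3g are made by enterocytes and Paneth cells and act against bacteria near the epithelium, Reg3g mainly against Gram-positive species, and both are known to be induced by bacterial signals and by interleukin-22 through STAT3. Reg1 and Reg2 are best known from the exocrine pancreas and from regenerating tissue, and Reg4 marks secretory cells of the crypt. Dmbt1, also called hensin, is a large secreted glycoprotein with many scavenger receptor cysteine-rich (SRCR) domains that binds bacteria and mucins.

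In low glutamine libraries Reg1, Reg3b, Reg3g, Dmbt1 and Reg4 were higher and Reg3a was lower than in control. Reg1 moved from 0.157 to 59.2 RPKM, Reg3b from 1.71 to 26.7 RPKM, Reg3g from 3.77 to 38.2 RPKM and Dmbt1 from 0.555 to 8.92 RPKM. Reg4 was the most abundant member in both groups, at 79.8 and 145 RPKM. Reg3a fell from 4.60 to 0.818 RPKM, Reg3d was listed at 0 in control and at 0.0531 RPKM in low glutamine, and Reg2 was listed at 0 in all 6 libraries. RPKM divides reads by the length of the transcript and the size of the library, so levels can be set side by side between genes.

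**Figure D1:**
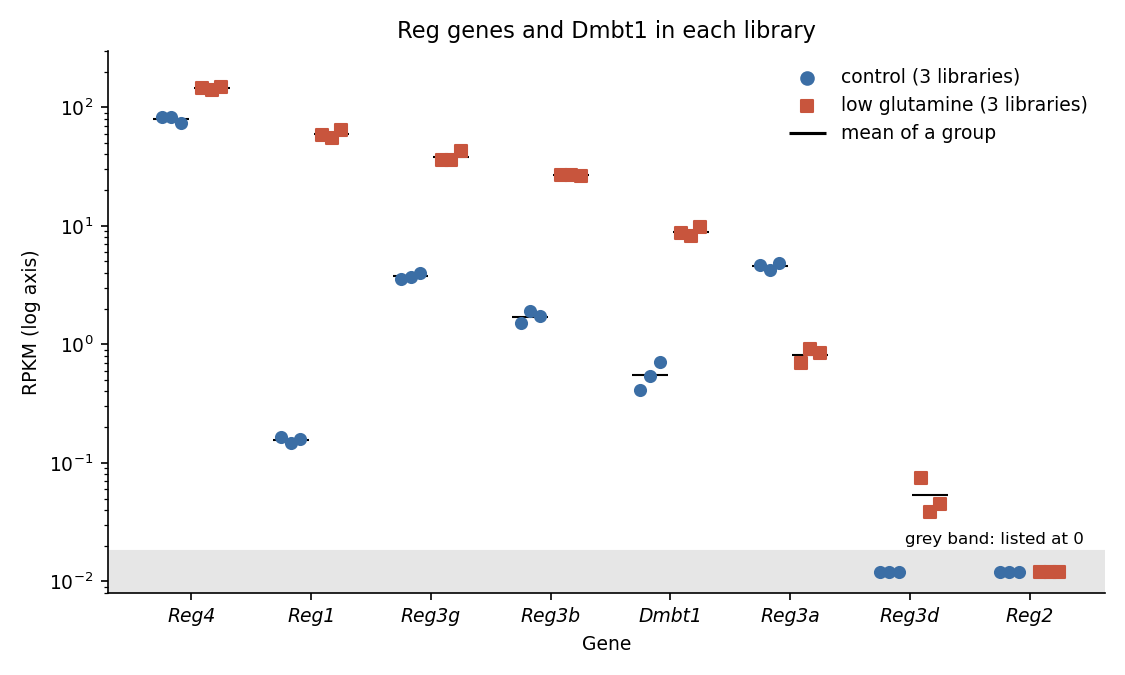
RPKM of each member (log axis) in the 3 control libraries (circles) and the 3 low glutamine libraries (squares), with the mean of a group as a black line and values of 0 drawn in the grey band. The groups do not overlap for Reg4, Reg1, Reg3g, Reg3b, Dmbt1 and Reg3a, and Reg3a alone among these 6 is lower in low glutamine.

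Of the 8 members 6 reached the mean of 1 RPKM needed for the fit across all genes, and Reg2 and Reg3d did not. Reg1 and Dmbt1 passed that filter only through their low glutamine values, and Reg3a only through its control values. In the limma fit of log2(RPKM + 1) over 11082 genes, 66.4% of all genes were called at a Benjamini-Hochberg adjusted p under 0.05, 36.1% as higher and 30.3% as lower in low glutamine. Of the 6 members 5 were called higher and 1 lower. The groups did not overlap for these 6 members, as for 38.9% of all tested genes in the higher and 31.3% in the lower direction. The members were chosen from this contrast, so nothing is read from these counts. The share of higher among all calls was 54.4%, and it was 69.1% with libraries rescaled to a common sum and 42.1% with median-of-ratios scaling. Over all tested genes the median log2 fold change was 0.03, and it became 0.14 and -0.05 under these scalings. The direction of each of the 6 members was the same under both.

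**Figure D2:**
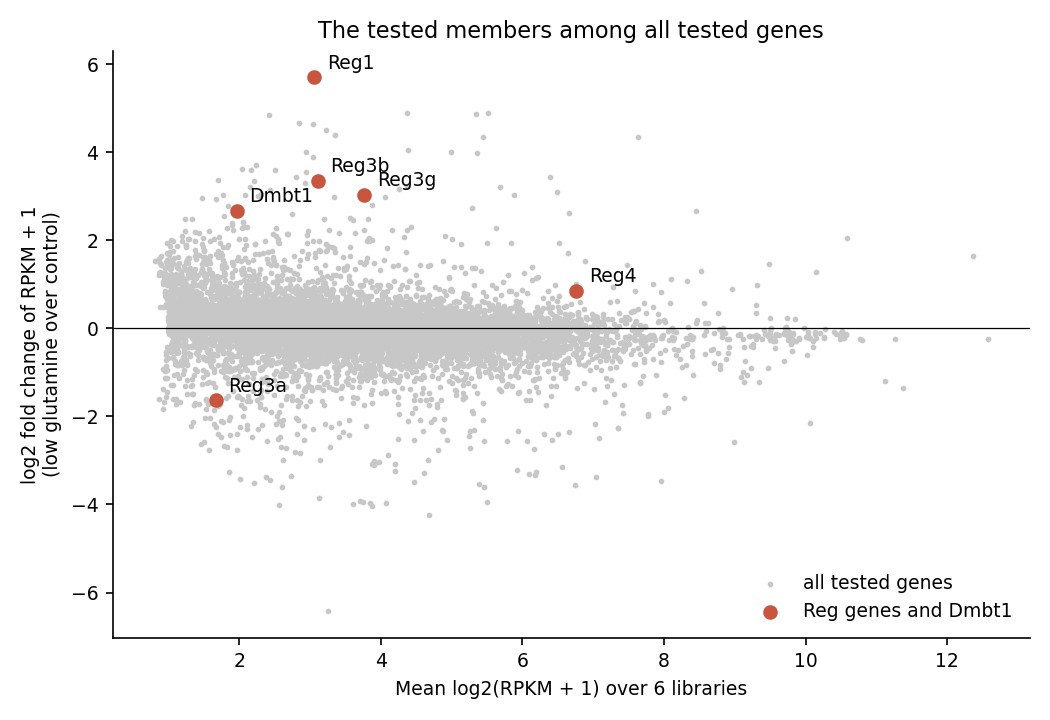
Log2 fold change of RPKM + 1 (low glutamine over control) against the mean log2(RPKM + 1) over 6 libraries for all tested genes (grey) and for the 6 tested members (red). Reg1 lies at the top of the plot at 5.70 and Reg3a below zero at -1.62.

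Estimated library depths, rounded, were 24400000 to 35400000 reads. Sex-linked transcripts separated the groups too. Xist, which silences an X chromosome, stood at 83.1 to 90.5 RPKM in control and 0.0237 to 0.0350 RPKM in low glutamine, and the Y-linked Eif2s3y had no reads in control but 25.2 to 31.4 RPKM in low glutamine. By these transcripts the control cells read as female and the low glutamine cells as male, so the groups also differed in source. The medium and this difference cannot be told apart in any value of the comparison, above or below. The 10 listed epithelial markers were all detected and summed to between 2447 and 3006 RPKM per library. Of 8 stromal markers none reached a mean of 1 RPKM, and Col3a1 was listed at 0. Of 10 immune markers 1, Cd68, did, while Adgre1 and the cytokine genes Il22 and Il17a were listed at 0.

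Reg1 through Reg3g, without Reg4, form a cluster of 6 genes on chromosome 6, from 78370885 to 78468874 of GRCm38 (mm10), a span of 98.0 kb. The order along the chromosome is Reg3b, Reg3d, Reg3a, Reg2, Reg1 and Reg3g, with Reg3d and Reg3g on the minus strand and the others on the plus strand. Reg4 lies on chromosome 3 (98222138 to 98236748) and Dmbt1 on chromosome 7 (131032057 to 131121628). All Reg transcripts have 6 exons and a coding sequence of 471 to 525 bases, and the Dmbt1 transcript has 48 exons and 5871 coding bases. Direction did not follow position in the cluster. Reg3a, which starts 9.82 kb from the start of Reg3b, was lower, and the genes at either end were higher, as was Reg1 at 55.1 kb. Reg3d and Reg2 lie among them with almost no reads.

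**Figure D3:**
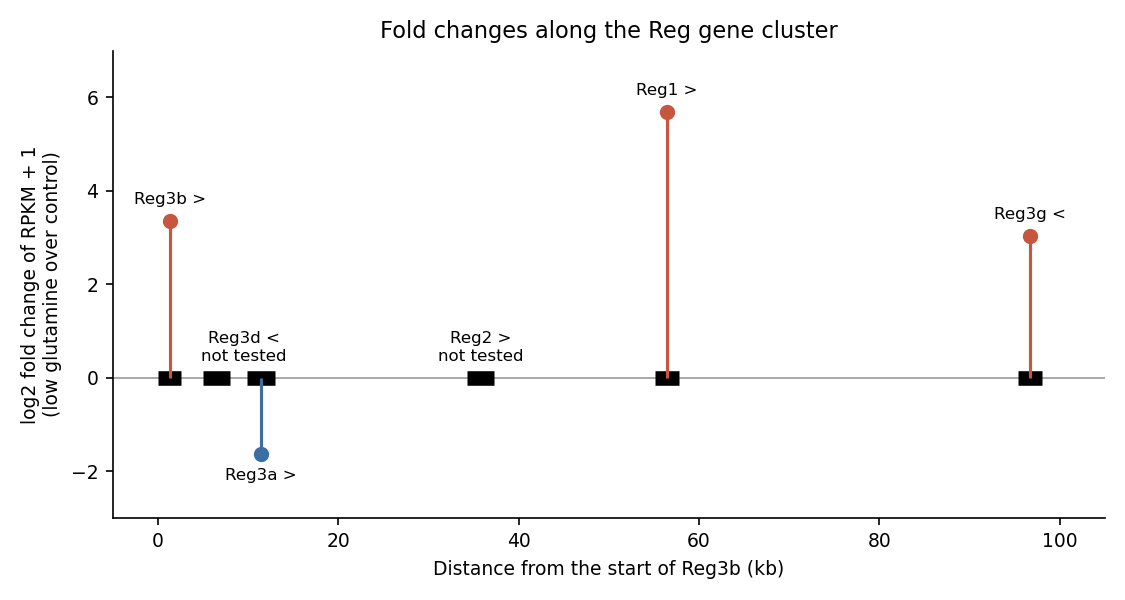
The 6 clustered Reg genes drawn to scale as black bars by distance from the start of Reg3b (kb), with the log2 fold change of RPKM + 1 as a stem and > or < for the strand. Reg3b (3.35), Reg1 (5.70) and Reg3g (3.03) stand above zero and Reg3a (-1.62) below, with Reg3d and Reg2 not tested.

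The 150 bases before the start site are shown for 4 cluster genes that contrast within close pairs: Reg3a and Reg3g, which moved in opposite directions, and Reg1 and Reg2, of which Reg1 had the highest log2(RPKM + 1) fold change upward among tested genes and Reg2 no reads. Sequences are from RefSeq, GRCm38.p6, 5′ to 3′ on the strand of the gene, and capitals mark a TATA box (TATAAA) or the TCF/LEF core (CTTTGA).
Reg3a, chr6:78380559-78380708, plus strand: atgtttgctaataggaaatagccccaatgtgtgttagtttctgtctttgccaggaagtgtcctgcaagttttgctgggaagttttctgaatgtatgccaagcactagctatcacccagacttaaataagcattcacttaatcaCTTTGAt
Reg3g, chr6:78468875-78469024, minus strand: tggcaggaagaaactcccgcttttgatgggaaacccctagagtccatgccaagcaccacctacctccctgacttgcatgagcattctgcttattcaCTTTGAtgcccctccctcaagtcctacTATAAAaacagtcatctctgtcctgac
Reg1, chr6:78425833-78425982, plus strand: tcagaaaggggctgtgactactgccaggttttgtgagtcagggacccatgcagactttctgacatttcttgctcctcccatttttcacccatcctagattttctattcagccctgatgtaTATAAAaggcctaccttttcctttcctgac
Reg2, chr6:78405005-78405154, plus strand: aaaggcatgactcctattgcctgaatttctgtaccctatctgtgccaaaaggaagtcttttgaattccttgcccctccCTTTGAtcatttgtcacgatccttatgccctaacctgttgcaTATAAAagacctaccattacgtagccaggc

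Upstream sequence was found for 7 members and for Dmbt1 it was not used here. On either strand, TATAAA occurred in 4 of the 7 windows (Reg1, Reg2, Reg3b, Reg3g) and in 7.57% of all 32851 windows of 150 bases. CTTTGA occurred in 4 (Reg2, Reg3a, Reg3b, Reg3g) and in 7.93% of all windows. The STAT motif TTCNNNGAA occurred in 1, Reg3b, at positions -129 to -121 from its start, and in 4.09% of all windows. It does not overlap the TCF/LEF core of Reg3b at -117 to -112. CANNTG (an E-box) was found in 4 windows and 47.7% of all. The window of Reg4 alone among the 7 held GTTAAT, part of an HNF1 site (3.71% of all windows). It also held the only AGATAA, a site read by GATA factors (5.65% of all windows). The Reg3a window holds its TCF/LEF core at -7 to -2 and no TATAAA, and that of Reg3g holds the core at -54 to -49. In Reg2, with no reads in any library, both motifs are present. A match is a description of letters and not of a bound site.

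Coding sequences were compared because reads of near-identical copies can be misassigned. Among the 7 Reg genes identity over aligned bases ran from 57.4% (Reg3b and Reg4) to 82.6% (Reg1 and Reg2). It was 76.4% for Reg3b and Reg3g, 74.7% for Reg3a and Reg3b and 73.2% for Reg3a and Reg3g. The longest stretch shared by any 2 coding sequences was 35 bases, in Reg3b and Reg3g, and 24 bases in the pairs of Reg3a with each of them. Reg1 and Reg2, the most alike pair, shared at most 19 bases in a row. The run shared by Reg3b and Reg3g is shown since it is the longest place in their coding sequences where a read could match both. The untranslated parts of the transcripts were not compared.
Reg3b and Reg3g: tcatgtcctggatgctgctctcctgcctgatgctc

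Read numbers were estimated with the depths from single-exon genes and a transcript length for each member. The length was picked, within 5% of the annotated one, to bring the values of that member closest to whole reads. Every non-zero value of all members then came out whole to within 0.0139 reads. Because the length was picked for this, the closeness is no separate check. The numbers of reads given below are these estimates.

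Reg1, on chromosome 6 (78425983 to 78428668), encodes a secreted lectin-like protein first known from pancreatic secretion. Control replicates 1 to 3 measured 0.166, 0.147 and 0.159 RPKM, against 58.2, 55.1 and 64.3 RPKM with low glutamine. Every low glutamine library was far above every control library. The control values rested on 4, 4 and 3 reads and the low glutamine values on 1528, 1400 and 1400 reads. The mean ratio was 376, with a 95% exact interval of 210 to 754 for counting error, and the fold change on the log2(RPKM + 1) scale was 5.70 ± 0.06 SE. The control values were closer together (coefficient of variation 6.32%) than their read numbers would give by counting alone (52.2%), so their SD of 0.00995 RPKM understates the error of the control level, whose counting interval is 0.0782 to 0.280 RPKM. Among increases on the log2(RPKM + 1) scale Reg1 ranked number 1 of 11082 tested genes, close to Pgc at 5.67. No rank was taken with other pseudocounts. The decrease of Xist was larger in size (-6.42).

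Reg2 (78405155 to 78408099), the closest relative of Reg1 by sequence, was listed at 0 throughout. Over the 3 libraries of a group, 0 reads allow an exact upper counting bound of 0.0580 RPKM in control and 0.0555 RPKM in low glutamine. Both bounds lie below the control level of Reg1 (0.157 RPKM).

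Reg3b (78370885 to 78373466), known as pancreatitis-associated protein and active against bacteria, measured 1.52, 1.90 and 1.73 RPKM in control, from 36, 51 and 32 reads. In low glutamine it measured 26.7, 26.9 and 26.4 RPKM, from 690, 672 and 567 reads. The low glutamine libraries were close together (coefficient of variation 0.837%) and all above control. The ratio of means was 15.6 (counting interval 12.9 to 18.8) and the log2 fold change 3.35 ± 0.06.

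Reg3g (78466269 to 78468874), the lectin that kills Gram-positive bacteria, measured 3.56, 3.73 and 4.03 RPKM with control medium. With low glutamine it measured 35.7, 36.2 and 42.6 RPKM. The groups were wide apart, and low glutamine replicate 3 was the highest library. These values rested on 76 to 102 and 922 to 939 reads, and the ratio of means was 10.1 (counting interval 8.91 to 11.5), with a log2 fold change of 3.03 ± 0.07. Reg3g exceeded Reg3b in all 6 libraries. The ratio of Reg3g to Reg3b was 1.96 to 2.35 in control and 1.34 to 1.61 in low glutamine.

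Reg3a (78380709 to 78383839) is a relative of these genes in the same cluster. Despite the shared name, the human gene REG3A is closer in function to mouse Reg3g. Mouse Reg3a measured 4.71, 4.25 and 4.84 RPKM with control medium. With low glutamine it measured 0.702, 0.907 and 0.846 RPKM. All low glutamine libraries were below all control libraries. The reads numbered 123, 126 and 99 in control and 20, 25 and 20 in low glutamine. The level in control was 5.62 times that in low glutamine (counting interval 4.29 to 7.42), and the log2 fold change was -1.62 ± 0.07. In control Reg3a was the highest gene of the cluster, and the Reg3g to Reg3a ratio was 0.757 to 0.877. In low glutamine this ratio was 39.9 to 50.8, so the order of the pair was reversed in every library.

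Reg3d (78375874 to 78378865), a relative of the islet neogenesis-associated protein, was listed at 0 in control and rested on 2, 1 and 1 reads in low glutamine. These numbers do not exceed 3 reads per library, and no fold change is given.

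Reg4, a lectin of secretory crypt cells, measured 82.0, 83.5 and 73.9 RPKM with control medium. With low glutamine it measured 146.7, 140.2 and 148.0 RPKM. The groups did not overlap. The reads ranged from 1842 to 5097. The ratio of means was 1.82, the smallest change in either direction among the 6 tested members. The log2 fold change was 0.85 ± 0.06, rank 604 of 11082 among increases.

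Dmbt1 measured 0.408, 0.545 and 0.711 RPKM with control medium. With low glutamine it measured 8.77, 8.26 and 9.73 RPKM. Its control libraries were the most uneven of any tested member, with a coefficient of variation of 27.3% where 80, 121 and 109 reads would give 9.84% by counting alone. All low glutamine libraries, with 1708 to 1873 reads, were above them. The ratio of means was 16.1 (counting interval of pooled reads 14.6 to 18.4) and the log2 fold change 2.68 ± 0.08. The ratio of Dmbt1 was thus near that of Reg3b, while its log2(RPKM + 1) change was smaller, since the added 1 weighs more on a gene at 0.555 RPKM.

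The composition of the family differed between the groups. The Reg genes together summed to 84.6 to 93.5 RPKM per control library and 259 to 282 RPKM per low glutamine library. Reg4 made up 88.6% ± 1.12 (SD, n = 3) of this sum in control and 53.7% ± 1.17 in low glutamine, and Reg1 0.175% ± 0.0165 and 21.9% ± 0.774. Within the chromosome 6 cluster the sum was 10.2 ± 0.443 RPKM in control and 125 ± 8.12 RPKM in low glutamine. Reg3a held 44.9% ± 2.43 of the cluster sum in control and 0.656% ± 0.0942 in low glutamine, and Reg1 went from 1.54% ± 0.114 to 47.4% ± 0.959. The order of levels in control was Reg4, Reg3a, Reg3g, Reg3b, Dmbt1 and Reg1, and in low glutamine Reg4, Reg1, Reg3g, Reg3b, Dmbt1 and Reg3a. No 2 neighbours in either order overlapped between libraries.

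**Figure D4:**
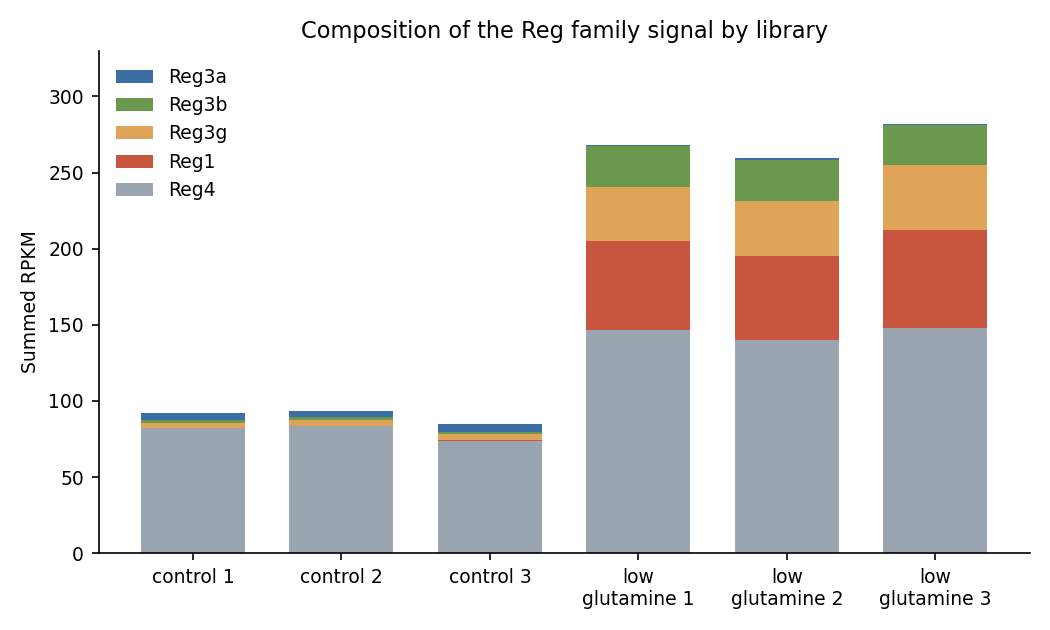
RPKM of Reg4, Reg1, Reg3g, Reg3b and Reg3a stacked for each of the 6 libraries. Reg4 makes up most of each control bar, and the taller low glutamine bars (259 to 282 RPKM in sum) also hold visible Reg1, Reg3g and Reg3b.

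The genes whose values over the 6 libraries lay closest to a member were found by Euclidean distance of centred log2(RPKM + 1). For Reg1 the nearest was Pgc (distance 0.20, 0.197 and 59.9 RPKM), followed by Igfbp2 and Defa23 (both 1.02). For Reg3a they were Nr1h4 (0.12), Slc30a10 (0.16) and Ano6 (0.17), for Reg4 Mageh1, Arnt2 and Dach1 (0.07 to 0.08) and for Dmbt1 Chgb, Krt23 and Anxa3 (0.14 to 0.25). The nearest genes of Reg3b were the Y-linked Ddx3y (0.14), Ccdc3 (0.17) and Pla2g2f (0.24), and those of Reg3g were Rnase1 (0.15), the Y-linked Kdm5d (0.16) and Pla2g2a (0.22). The distances compare 6 libraries in 2 groups, so genes with group differences of like size lie close.

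Marker genes of the cell types known to make these proteins moved as well, and their part in the values above was not tested. In bulk RNA, fewer cells of a type and less RNA per cell cannot be told apart. The counts below stand beside 36.1% of all tested genes called higher and 30.3% called lower. Of 10 Paneth markers 10 rose by the limma test, and their sum was 2550 to 2706 RPKM in control and 6875 to 7677 RPKM in low glutamine. Of 9 tested enteroendocrine markers 9 rose (sums 264 to 268 and 1265 to 1437 RPKM). Of 10 goblet and deep crypt secretory markers 9 fell and 1, the receptor gene Kit, rose, with sums of 1882 to 2222 and 898 to 986 RPKM, while Reg4 was higher. Of 12 gastric markers 3 were tested and all 3, Pgc, Gkn3 and Gif, rose, while Gkn1, Gkn2 and Sox2 were listed at 0 (sums 1.46 to 1.92 and 66.0 to 74.3 RPKM). These 3 passed the filter only through their low glutamine values, with control means of 0.197, 0.232 and 0.0220 RPKM. Only a rise could therefore be called for them, and nothing is read from this count. Pancreatic acinar markers bear on Reg1. Of 17, the defining genes Cpa1, Cpb1, Cela2a, Amy2a5, Amy2b, Pnlip, Prss2 and Ptf1a were listed at 0 in all 6 libraries. Cela1 and Ctrb1 fell and Bhlha15 rose, and the sum was 64.0 to 74.5 RPKM per control library and 19.0 to 20.2 RPKM per low glutamine library. Of 8 colon markers 4 were tested, 3 fell and 1, Prdm16, rose (sums 44.4 to 47.0 and 17.6 to 19.4 RPKM), with Hoxb13 at 0. Of 6 proximal small intestine markers 4 fell and 1, Onecut2, rose (sums 1011 to 1197 and 167 to 190 RPKM).

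Receptors and signalling genes of the STAT3 pathway, the route by which interleukin-22 and interleukin-6 induce Reg3 genes, showed no common direction. Of 22 listed genes 17 were tested, and 4 rose, 9 fell and 4 were not called by limma, with a median log2 fold change of -0.16 where that of all tested genes was 0.03. With rescaling to a common sum 5 fell, and without the filter on low values 8 of 22 rose and 7 fell. Il10rb, a subunit of the interleukin-22 receptor, fell from 30.9 ± 1.28 to 21.7 ± 0.509 RPKM (SD, n = 3), a log2 fold change of -0.49 ± 0.05 (limma adjusted p = 4.7e-06). Il6st, the shared signal transducer gp130, rose from 5.89 ± 0.392 to 10.05 ± 0.731 RPKM and Il11ra1 from 2.21 to 4.01 RPKM, and Stat5b and Jak1 rose by 0.29 and 0.23. The kinase gene Pim1, Socs2 and Jak2 fell by 0.46, 0.37 and 0.25. The feedback inhibitor Socs3 measured 3.14 ± 0.252 and 2.77 ± 0.0366 RPKM and was not called (limma adjusted p = 0.073). It was called lower with median-of-ratios scaling (0.0097) and without control replicate 3 (0.021), and its adjusted p reached 0.53 over the alternatives. Stat5a (1.68 and 1.92 RPKM), Pias3 (4.54 and 4.42) and Bcl3 (6.90 and 6.61) were not called, and Stat5a was called higher with rescaling to a common sum. STAT3 activity was not measured, and the part of this pathway in the Reg3 values was not tested.

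Sensors of microbes and the NF-kB pathway, which also lie upstream of Reg3g, went both ways. Of 25 genes 18 were tested, and 6 rose, 8 fell and 4 were not called, with a median of -0.10. Nfkbia, the inhibitor of NF-kB, rose from 16.0 ± 1.29 to 25.7 ± 0.270 RPKM, and Rela, Nfkb2 and Tlr3 rose by 0.36, 0.34 and 0.31 on the log2 scale. The cytokine gene Il18 fell from 3.59 ± 0.452 to 0.959 ± 0.144 RPKM, the flagellin receptor Tlr5 from 1.91 to 0.625 RPKM, and Ticam1 and Il17rc by 0.81 and 0.74. The adaptor Myd88, needed for Reg3g expression in mice, measured 7.93 ± 0.0452 and 7.14 ± 0.519 RPKM and was not called (adjusted p = 0.055). It was called lower with the replicate number as a block (0.042), with median-of-ratios scaling (0.0035) and without low glutamine replicate 3 (0.013), and its adjusted p reached 0.68 over the alternatives. Traf6 (10.1 RPKM in both groups), Ripk2 (1.41 RPKM in both) and Tnfaip3 (3.76 RPKM with control medium, 3.53 with low glutamine) were not called. Traf6 was called higher with rescaling to a common sum and Tnfaip3 lower with median-of-ratios scaling. The part of this pathway in the Reg3g values was not tested.

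Other secreted defence proteins of the gut surface divided. Of 28 listed genes 11 were tested, 7 rose and 4 fell, with a median of 0.57. Pla2g2a, a bactericidal phospholipase of Paneth cells, rose from 0.717 ± 0.215 to 12.7 ± 1.52 RPKM and the pentraxin gene Mptx2 from 0.160 ± 0.143 to 7.96 ± 1.36 RPKM. Sprr1a rose by 1.76 on the log2 scale, and the peptidoglycan recognition protein Pglyrp1 rose from 111 to 214 RPKM. In the other direction, Sprr2a1 fell from 357 ± 23.2 to 73.5 ± 3.41 RPKM, Mptx1 from 1.63 to 0.383 RPKM, the flagella-binding Lypd8 from 177 to 96.2 RPKM and the immunoglobulin transporter Pigr from 266 to 165 RPKM. Some of the listed genes often raised together with Reg3 genes in inflamed epithelium were at very low levels. They were picked after their values were seen, and an inflamed state was not tested. Mean Lcn2 was 0.0160 RPKM in control and 0.0230 in low glutamine. Mean Saa1 was 0.0462 and 0.0325 RPKM and mean Nos2 0.278 and 0.230 RPKM, none of them tested. S100a8 and Saa2 were listed at 0 in every library.

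Lectins outside the Reg family mostly fell. Of 27 listed genes 16 were tested, and 13 fell, 2 rose and 1 was not called, with a median of -0.47. The C-type lectin genes Clec2h and Clec2e fell from 9.68 ± 0.597 and 42.3 ± 1.91 to 0.942 ± 0.155 and 9.12 ± 0.238 RPKM. Zg16, a goblet cell lectin that binds bacterial walls, fell by 1.93 and the galectin Lgals6 by 0.82. The galectin Lgals1 rose from 5.27 ± 0.224 to 13.2 ± 0.805 RPKM (limma log2 fold change 1.18 ± 0.06), and intelectin Itln1, which is also on the defence and Paneth lists, rose from 664 to 779 RPKM. Itln1 was not called without low glutamine replicate 1 (limma adjusted p = 0.052, the highest of its alternatives, the lowest being 0.00011), which left 1 lectin called higher. Lman2, a cargo lectin of the secretory pathway, was not called at 43.9 and 44.1 RPKM, and was called higher with rescaling to a common sum and lower with median-of-ratios scaling.

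Relatives of Dmbt1 by their SRCR or zona pellucida domains were nearly silent. Of 23 genes 2 were tested, the galectin-3-binding protein Lgals3bp, which rose from 78.7 ± 2.13 to 104 ± 4.42 RPKM, and Prss12, which fell from 7.04 ± 0.339 to 2.04 ± 0.202 RPKM. Macrophage members of the group such as Msr1 and Marco were listed at 0. Extl3, an exostosin reported as a receptor for Reg proteins, rose from 7.94 ± 0.163 to 11.2 ± 0.807 RPKM (log2 fold change 0.45 ± 0.06, limma adjusted p = 2.6e-05). The exostosins Ext1, Extl2 and Ext2 rose by 0.55, 0.25 and 0.20, and Extl1 fell by 0.40, so 4 of 5 were called higher, where 36.1% of all tested genes were.

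**Figure D5:**
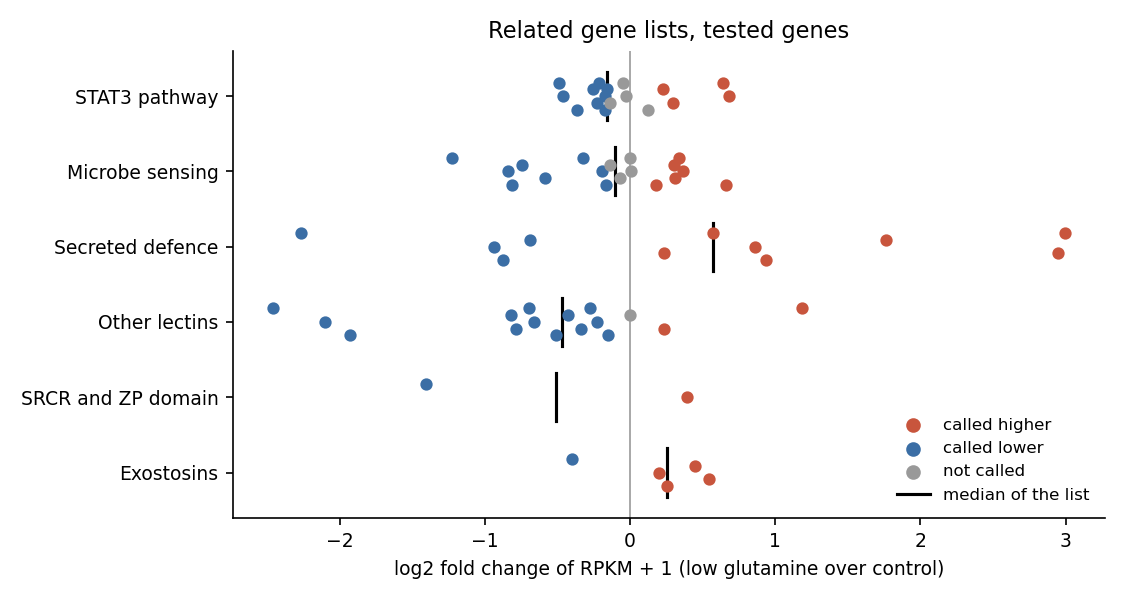
Log2 fold change of RPKM + 1 (low glutamine over control) of each tested gene in the 6 related lists, coloured by its limma call, with the list median as a black line. The STAT3 and microbe sensing lists straddle zero (medians -0.16 and -0.10), and most other lectins lie below it (-0.47).

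The chromosomal neighbours of the members were compared with them. The chromosome 6 cluster stands alone, since the nearest protein-coding genes are Ctnna2 at 391 kb on the side of Reg3b and Gm20594 at 1349 kb on the side of Reg3g. Of the 3 neighbours on each side Ctnna2, Lrrtm1, Lrrtm4 and 4931417E11Rik stayed under 0.1 RPKM in both groups, Gm20594 was not called (63.9 and 68.2 RPKM), and Gcfc2, at 3442 kb, rose by 0.20. Around Reg4, the neighbours Notch2 and Phgdh rose by 0.95 and 0.51 on the log2 scale, Adam30 and Gm5544 were listed at 0, and Zfp697 (0.430 and 1.01 RPKM) was not tested. Around Dmbt1, Plekha1 fell by 0.49, and Btbd16, Htra1, 4933402N03Rik and Cuzd1 stayed under 0.1 RPKM in both groups, while Cdcp3 was not matched by symbol.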

How the data were processed

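RNA from 6 libraries (3 control, 3 low glutamine) was sequenced with TruSeq kits, per the labels' protocols. The deposited values are RPKM per gene symbol, made by the authors. CASAVA 1.8, HISAT2 2.0.4, Partek and the mm10 build are listed, without roles, in the submitters' processing notes. Which annotation and counting rule were used, and whether by strand, is not given in the sources used here, so overlapping or antisense reads cannot be separated. Members were matched by symbol, all 8 to RefSeq GRCm38.p6. Members and gene lists were chosen with earlier results of these data known.

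The 11082 of 24956 genes whose mean reached 1 RPKM were fitted with limma 3.58.1 (R 4.3.3) on log2(RPKM + 1), with a variance trend, two-sided, Benjamini-Hochberg adjustment over all genes and a threshold of 0.05. A fold change on this scale understates that of low genes. A tested gene with a mean under 1 RPKM in 1 group passed the filter only through the other group. For such a gene only 1 direction could be called. The fit was tested on simulated data. Named genes were all members, up to 4 called genes per list and direction with the largest change, uncalled genes where 5 or fewer, 3 nearest genes in pattern and 3 neighbours per side. A few genes under this rule are not reported here. Other listed genes and markers named were chosen after their values were seen.

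Depth was estimated as the value at which 2366 single-exon genes give whole reads, met by 80.6% to 87.4% of the low values that set it within 0.02 reads. Poisson and binomial exact intervals (95%) cover counting error only. Same-numbered libraries deviated together from their groups (correlations of 0.15, 0.25 and 0.57 across genes), which met the rule that every pair exceed 0.1, and the block stands as an alternative. Alternatives were pseudocounts of 0.1 and 5, no filter, 2 scalings, the replicate block and leaving out each library. Python 3.11.15, scipy 1.17.1 and Biopython 1.88 served for the rest.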

Additional observations from a re-analysis of the deposited data

How the results depend on the processing

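The 6 tested members kept their direction under every alternative run. For 5 of them the log2 fold change moved most with the pseudocount: with 0.1 and with 5 it was 7.85 and 3.64 for Reg1, -2.36 and -0.72 for Reg3a, 3.89 and 2.24 for Reg3b, 3.30 and 2.30 for Reg3g and 3.81 and 1.32 for Dmbt1. Reg4 moved most with scaling, to 0.98 with a common sum and 0.76 with median-of-ratios. Leaving out 1 library at a time gave 5.64 to 5.75 for Reg1 and 0.80 to 0.89 for Reg4. Without a filter on low values more genes were tested, and 8 STAT3 pathway genes, 12 microbe sensing genes, 5 other lectins and 5 SRCR or zona pellucida proteins were called higher, and 2 of the last lower. With rescaling to a common sum 5 STAT3 pathway genes fell. Leaving out 1 library gave 1 to 2 other lectins called higher and 1 to 2 SRCR or zona pellucida proteins called lower, the second being Ssc4d, which then passed the filter. With the replicate number as a block 4192 genes were higher and 3544 lower, where 4001 and 3360 were so without it, and among the genes named here Myd88 changed its call. Without a filter 5697 genes were higher. Counts under 10 reads limit Reg1 in control, Reg3d and Reg2.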

Other observations

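Receptors and enzymes tied to mucosal defence that lay below the level needed for the test went both ways. Fut2, the fucosyltransferase induced by interleukin-22 in epithelium, had a mean of 0.201 RPKM with control medium and 1.42 RPKM with low glutamine, the bacterial lipopeptide receptor Tlr2 of 0.0686 and 0.961 RPKM, and the interleukin-6 receptor Il6ra of 0.267 and 0.786 RPKM. Lower means in low glutamine were listed for the oxidase gene Duox2 (0.847 and 0.551 RPKM), its maturation factor Duoxa2 (0.297 and 0.195), the lysozyme gene Lyz2 (0.475 and 0.310) and the nitric oxide synthase gene Nos2 (0.278 and 0.230). These genes were chosen after their values were seen and carry no test.

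The spread of the members between replicates was not a fixed multiple of counting error. It was below counting error for Reg3b in low glutamine (0.837% measured, 3.94% from counting) and for Reg1 in control (6.32% and 52.2%). The same held for Reg3b (11.1% and 15.9%) and Reg3g (6.22% and 10.7%) in control, and for Reg3a in both groups. It was above for Dmbt1 in both groups (27.3% and 9.84% in control, 8.34% and 2.38% in low glutamine) and for Reg1 in low glutamine (7.84% and 2.63%). Reg3g in low glutamine (10.1% and 3.28%) and Reg4 in both groups were also above. An SD over 3 libraries is itself imprecise, and no test was made of these differences.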
